A study of Mus musculus with 6 samples.

Results

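The COMPASS complexes place methyl groups on lysine 4 of histone H3. The 10 genes described here are the 6 that encode their catalytic subunits (Kmt2a, Kmt2b, Kmt2c, Kmt2d, Setd1a and Setd1b), the shared core subunits Ash2l and Wdr5, and Paxip1 and Ncoa6, which belong to the KMT2C and KMT2D complexes. They were taken by gene name, with earlier results of these data known, and are 10 of the 14667 genes listed in at least 1 of the deposited tables. All 10 are listed in both tables and passed the minimum mean level of 1 FPKM in every comparison, Kmt2c with a mean of 0.976 FPKM in Cbfa2t2_KO.

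The values come from poly(A) RNA-seq of NE-4C, a mouse neural stem cell line deficient in p53. The 6 libraries make up 3 groups with 2 libraries each, and every line is labelled as an H3f3a knockout that stably expresses an HA-tagged H3.3. H3.3K27M carries tagged H3.3 with lysine 27 changed to methionine, the change found in diffuse midline gliomas. Cbfa2t2_KO, whose genotype is given as H3.3WT Cbfa2t2 Knockout, carries tagged wild-type H3.3 and a second knocked-out gene, Cbfa2t2, which encodes a transcriptional corepressor. H3.3WT carries the tagged wild-type protein and no second knockout. Whether a line is 1 clone is not stated, and neither is whether paired libraries of a line are separate cultures. The p-values therefore reflect library-to-library spread alone, which may be technical. Changes against H3.3WT in both lines rest on the same H3.3WT libraries.

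Each COMPASS complex holds 1 SET-domain enzyme and a core of WDR5, RBBP5, ASH2L and DPY30, without which the enzymes have little activity. In mammalian cells SETD1A and SETD1B make much of the trimethylated form at active promoters, KMT2A and KMT2B act at promoters of developmental genes, and KMT2C and KMT2D place the monomethylated form at enhancers. The KMT2C and KMT2D complexes also contain the H3K27 demethylase KDM6A, which acts on the residue that is changed in H3.3K27M.

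Values are FPKM, fragment numbers scaled by transcript length and library total, and levels are set against each other between genes on that scale. Libraries within H3.3K27M and within Cbfa2t2_KO differed by transcript length, as described below, which limits such comparisons. Read depth is unknown, since the tables hold no counts, and summed FPKM ran from 371546 to 419389 in H3.3K27M, from 375895 to 393403 in Cbfa2t2_KO and from 363604 to 366844 in H3.3WT. H3f3a was listed at 77.3 and 66.8 FPKM in H3.3K27M and 82.1 and 66.3 in Cbfa2t2_KO, against 131 and 181 in H3.3WT, so its mean was 46.2% of the H3.3WT mean in H3.3K27M and 47.6% in Cbfa2t2_KO. Reads of the tagged H3.3, of the edited locus and of near-identical H3f3a copies cannot be told apart in these tables. Cbfa2t2 was listed at 2.02 and 0.855 FPKM in the H3.3K27M libraries, 1.02 and 0.769 in the Cbfa2t2_KO libraries and 1.38 and 1.35 in the H3.3WT libraries. The change of Cbfa2t2 in Cbfa2t2_KO did not pass the test (log2 change -0.32, limma adjusted p = 0.153), and the position of the edit is not stated in the labels. Of 10 neural stem and progenitor markers 8 are listed, with sums of 146 and 160 FPKM in H3.3K27M, 132 and 127 in Cbfa2t2_KO and 191 and 196 in H3.3WT, and Sox1 and Fabp7 are not listed. Sox2, Sox3, Nes, Vim and Msi1 were each above 9 FPKM in all 6 libraries, while Prom1 lay between 2.84 and 7.61, Pax6 between 0.232 and 0.926 and Hes5 between 0.0292 and 0.678. The sums cover opposite changes. Of the 6 markers tested, 3 were called lower and 2 higher than H3.3WT in each line. Over all genes 17.8% were lower and 8.42% higher in H3.3K27M, and 21.5% and 13.1% in Cbfa2t2_KO. The higher ones were Vim (means 340% of H3.3WT in H3.3K27M and 239% in Cbfa2t2_KO) and Prom1 (231% and 218%). Of 6 pluripotency markers 5 are listed, and Zfp42 is not. Pou5f1 was high, with 1139 and 1351 FPKM in H3.3K27M, 1014 and 1169 in Cbfa2t2_KO and 1069 and 919 in H3.3WT. In the same order of groups, Lin28a averaged 234, 228 and 170 FPKM. The others were far lower, with means of 9.23, 2.96 and 6.08 for Nanog, 0.831, 1.03 and 1.60 for Klf4 and 1.91, 0.232 and 0.600 for Dppa4. Epithelial markers summed to 229 and 225 FPKM in H3.3K27M and 274 and 264 in Cbfa2t2_KO, against 156 and 128 in H3.3WT, and their part in the results below was not tested. None of 5 microglial and leukocyte markers is listed.

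The libraries of a group differed from each other by transcript length, and the 6 catalytic subunits have long mRNAs, longer than those of 91.5% (Setd1a) to 99.9% (Kmt2a) of genes, with Kmt2d at the top. On GRCm38 the genes lie at chr9:44803355-44881296 (Kmt2a), chr7:30568858-30588726 (Kmt2b), chr5:25271798-25498783 (Kmt2c), chr15:98831669-98871204 (Kmt2d), chr7:127776670-127800122 (Setd1a) and chr5:123142193-123168629 (Setd1b). The others lie at chr8:25815996-25847694 (Ash2l), chr2:27515157-27536535 (Wdr5), chr5:27740080-27791691 (Paxip1) and chr2:155390656-155473894 (Ncoa6). In GENCODE vM21 the longest coding transcript has 19823 bases for Kmt2d, 16470 for Kmt2a, 14967 for Kmt2c, 8857 for Setd1b, 8469 for Kmt2b and 6487 for Setd1a, against 2890 for Wdr5 and 3307 for Ash2l. H3.3K27M library 2 minus library 1 had a median difference on the log2(FPKM + 1) scale of -0.55 over the 466 genes longer than 8 kb and 0.27 over the 1558 genes of at most 1 kb. In Cbfa2t2_KO the corresponding medians were -0.33 and 0.089, and in H3.3WT they were -0.012 and 0.071. Of the 10 COMPASS genes 9 were lower in H3.3K27M library 2 than in library 1 (56.6% of 11589 genes were), 9 were lower in Cbfa2t2_KO library 2 (54.7%) and 6 in H3.3WT library 2 (44.8%). The largest gap was that of Kmt2d in H3.3K27M, -1.21 on the log2 scale, and 0.552% of all genes had a lower one, whereas Wdr5 had -0.031. Changes between groups also differed by length. Over tested genes longer than 8 kb the median log2 change against H3.3WT was -0.253 in H3.3K27M and -0.235 in Cbfa2t2_KO. Over those of at most 1 kb it was 0.087 and -0.016. The part of this pattern in the differences between groups was not tested beyond the fits with trends on GC content and length removed, given below. The library numbers of H3.3K27M are those of the columns, which are named only by the letter M.

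**Figure D1:**
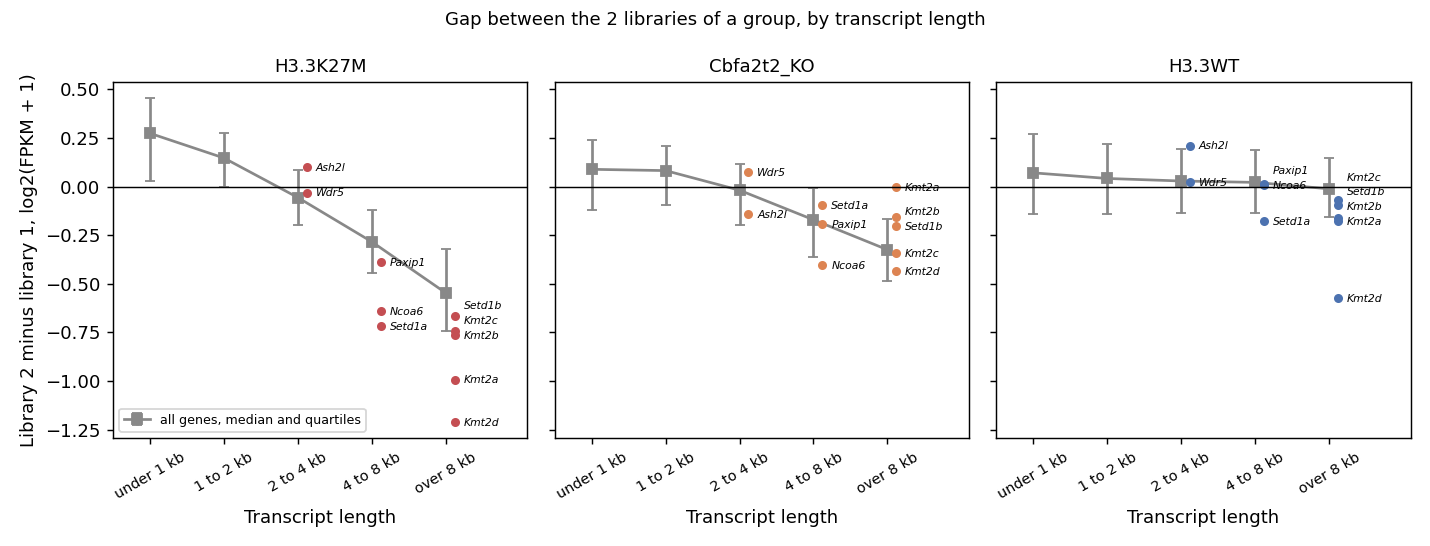
Difference between the 2 libraries of each group (library 2 minus library 1, log2(FPKM + 1)) by length of the longest coding transcript; grey squares are medians and bars quartiles over all genes, coloured points are COMPASS genes. In H3.3K27M the median falls to -0.55 for transcripts over 8 kb, with Kmt2d at -1.21, while in H3.3WT the medians of all length classes lie near 0.

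Among the enzymes, Setd1a had the highest level in all 3 groups and Kmt2c the lowest. Setd1a averaged 11.7 ± 4.39 FPKM in H3.3K27M, 13.8 ± 0.694 in Cbfa2t2_KO and 21.6 ± 1.95 in H3.3WT (SD, n = 2 in each group here and below), and Kmt2c averaged 1.28 ± 0.814 FPKM in H3.3K27M, 0.976 ± 0.332 in Cbfa2t2_KO and 1.70 ± 0.0909 in H3.3WT. The FPKM of the 6 enzymes summed to 37.8 and 18.8 in the H3.3K27M libraries and to 34.3 and 29.8 in the Cbfa2t2_KO libraries, against 50.6 and 42.8 in the H3.3WT libraries. Both lines lay below H3.3WT without overlap, and H3.3K27M library 2 was the lowest of all. Setd1a and Setd1b together made up 45.1% and 51.2% of that sum in H3.3K27M, 51.1% and 53.6% in Cbfa2t2_KO and 53.8% and 56.4% in H3.3WT. Kmt2b made up 25.7% and 28.2% in H3.3K27M and 27.6% and 28.2% in Cbfa2t2_KO, against 19.3% and 20.1% in H3.3WT. With 2 libraries against 2, an exact two-sided permutation test of one such value cannot give a p below 0.333, so these sums and shares are given without a test. They set transcripts of different length against each other, and the part of the length pattern in them was not tested.

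**Figure D2:**
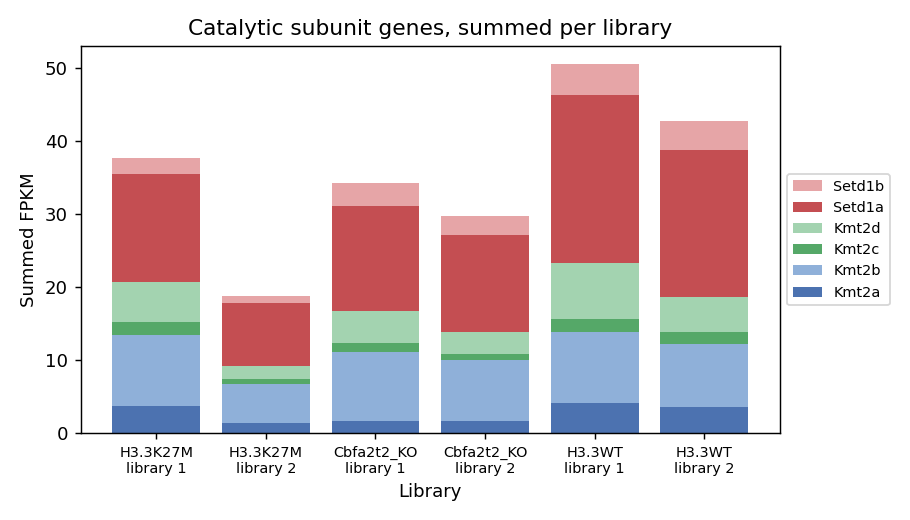
Summed FPKM of the 6 catalytic subunit genes in each library, stacked by gene from Kmt2a at the bottom to Setd1b at the top. The bars reach 37.8 and 18.8 in H3.3K27M, 34.3 and 29.8 in Cbfa2t2_KO and 50.6 and 42.8 in H3.3WT, with Setd1a the thickest layer in every bar.

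Set by their means over all 10 genes, Wdr5 stood first in every group and apart from the next gene, Setd1a. In H3.3K27M the ranges of Setd1a, Paxip1 and Kmt2b overlapped from one to the next, and so did those of Ash2l, Kmt2d, Kmt2a, Ncoa6, Setd1b and Kmt2c. Within each H3.3K27M library, Kmt2d, Kmt2a, Ncoa6, Setd1b and Kmt2c stood in that order. In Cbfa2t2_KO, Paxip1 and Kmt2b overlapped, as did Kmt2d with Setd1b and Setd1b with Ncoa6, while Kmt2a stood apart below Ncoa6 and above Kmt2c. In H3.3WT, Kmt2b overlapped with Paxip1, Kmt2d with Ash2l and Setd1b with Kmt2a. Kmt2a held the eighth place by mean in H3.3WT and the ninth in Cbfa2t2_KO.

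**Figure D3:**
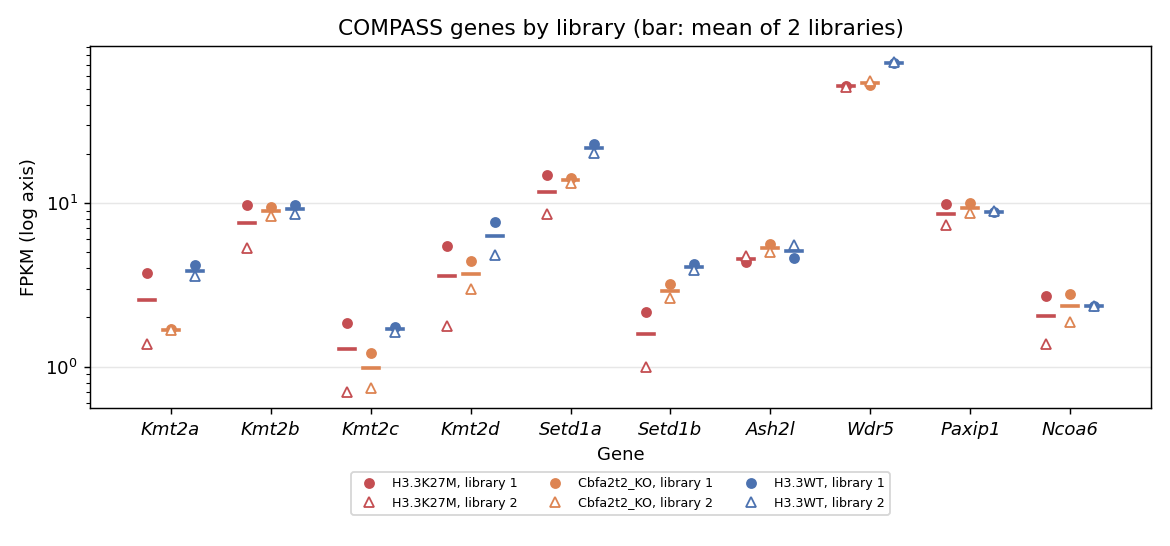
FPKM (log axis) of the 10 COMPASS genes in each library, with H3.3K27M in red, Cbfa2t2_KO in orange and H3.3WT in blue, circles for library 1, triangles for library 2 and bars for the mean of 2 libraries. Kmt2a in Cbfa2t2_KO lies at 1.69 and 1.68, below both H3.3WT libraries at 4.16 and 3.57, and Wdr5 in both lines lies between 51.2 and 55.4, below 71.4 and 72.4 in H3.3WT.

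In Cbfa2t2_KO, Kmt2a, Setd1a and Wdr5 fell against H3.3WT and none of the 10 genes rose. The call is an adjusted p under 0.05 by limma on log2(FPKM + 1), adjusted over all 11626 genes tested. Adding 1 makes the changes of genes with low FPKM look smaller. Over all tested genes 34.6% were called, 21.5% lower and 13.1% higher, so 3 of 10 lower is near that background. At an unadjusted p under 0.05 there were 5 of 10, where 46% of all genes passed. The groups did not overlap for 6 of the 10, each lower in Cbfa2t2_KO, where 70.4% of all genes did not overlap, 42% lower and 28.5% higher. Kmt2c is included in these counts and in the median, although it averaged 0.976 FPKM in Cbfa2t2_KO and reached the minimum through H3.3WT alone. Its lower level there is therefore no support. The median log2 change was -0.39 over the 10 genes and -0.11 over all genes. Median-of-ratios scaling and quantile normalization brought the median of all genes to 0.00050 and -0.0051, and higher genes then made up 50.8% and 50.2% of calls, against 37.9% with the values as deposited. On those scales the median of the 10 genes was -0.28 and -0.31.

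Kmt2a, whose protein (also called MLL1) is known for maintaining Hox gene expression and for its fusions in leukaemia, had 1.69 and 1.68 FPKM in Cbfa2t2_KO, against 4.16 and 3.57 in H3.3WT. The Cbfa2t2_KO mean was 43.6% of the H3.3WT mean, and the log2 change was -0.85 ± 0.17 (SE; limma adjusted p = 0.0080). This call held in each fit that left out 1 library (adjusted p from 0.026 to 0.044) and under the 10 other settings that test the gene by adjusted p alone, with adjusted p from 0.0050 to 0.049. With each library's trend on GC content and length removed, the change was -0.75. Kmt2b, the closest relative of Kmt2a, had 9.47 and 8.39 FPKM in Cbfa2t2_KO against 9.74 and 8.61 in H3.3WT, with overlapping groups (log2 change -0.03, 95% interval -0.41 to 0.34). Kmt2a over Kmt2b was 0.179 and 0.201 in the Cbfa2t2_KO libraries and 0.428 and 0.415 in the H3.3WT libraries. In the H3.3K27M libraries it was 0.386 and 0.261, also below H3.3WT. This ratio does not depend on the overall scaling of a library. It can carry the length pattern, since the transcripts have 16470 (Kmt2a) and 8469 (Kmt2b) bases.

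Setd1a had 14.3 and 13.3 FPKM in Cbfa2t2_KO and 23.0 and 20.2 in H3.3WT (log2 change -0.61 ± 0.15, limma adjusted p = 0.017). The call was lost in a fit of all 6 libraries (adjusted p = 0.072) and without Cbfa2t2_KO replicate 1, Cbfa2t2_KO replicate 2 or H3.3WT replicate 1 (0.052, 0.095 and 0.074). GENCODE places exons of the gene model Gm49388 over 3523 bases of Setd1a exons on the same strand, so reads there may be shared. Setd1b, its relative, had 3.18 and 2.63 FPKM in Cbfa2t2_KO and 4.24 and 3.90 in H3.3WT, lower without overlap, but did not pass (log2 change -0.38, 95% interval -0.78 to 0.03, adjusted p = 0.132).

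The enhancer enzymes Kmt2c and Kmt2d were lower without overlap in Cbfa2t2_KO and did not pass, and Kmt2c reached the minimum through H3.3WT alone. Kmt2c had 1.21 and 0.741 FPKM in Cbfa2t2_KO and 1.76 and 1.63 in H3.3WT (log2 change -0.46, 95% interval -0.87 to -0.05, adjusted p = 0.080). Kmt2d had 4.41 and 3.0 FPKM in Cbfa2t2_KO and 7.70 and 4.84 in H3.3WT (log2 change -0.62, 95% interval -1.18 to -0.05, adjusted p = 0.086). The H3.3WT libraries differed more in Kmt2d than in any of the other 9 genes. Paxip1, an adaptor with BRCT domains, and Ncoa6, a nuclear receptor coactivator, overlapped between the groups, with log2 changes of 0.07 (95% interval -0.30 to 0.44) and -0.02 (-0.46 to 0.43).

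Wdr5, the scaffold that holds the enzyme to the core, had 52.6 and 55.4 FPKM in Cbfa2t2_KO and 71.4 and 72.4 in H3.3WT (log2 change -0.41 ± 0.13, limma adjusted p = 0.042). The libraries of each group lay close together, but the call was lost in each fit that left out 1 library (adjusted p from 0.106 to 0.145) and under 6 of 11 other settings that call by adjusted p alone, among them median-of-ratios scaling (0.231) and a fit of all 6 libraries (0.051). Ash2l, the core subunit that works with DPY30, overlapped between Cbfa2t2_KO (5.63 and 5.0 FPKM) and H3.3WT (4.64 and 5.53), with a log2 change of 0.06 (95% interval -0.35 to 0.46).

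In H3.3K27M, Setd1a and Setd1b fell against H3.3WT and none of the 10 genes rose. Over all 11623 genes tested 26.2% were called, 17.8% lower and 8.42% higher, so 2 of 10 is near the background here too. At an unadjusted p under 0.05 there were 3 of 10, where 40.5% of all genes passed. Groups did not overlap for 3 of the 10 (Setd1a, Setd1b and Wdr5), all lower, where 66.3% of all genes did not overlap, 41.3% lower and 25.1% higher. The median log2 change was -0.39 over the 10 genes and -0.12 over all genes. Without H3.3K27M replicate 2 the median was -0.09 over the 10 genes and -0.088 over all genes. With the trends on GC content and length removed it was -0.13 over the 10 genes and also -0.13 over all genes. The count of calls was not stable when 1 library was left out, which leaves 1 library in a group. The share of all genes called was also smaller in each of those fits than with all libraries.

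Setd1b had 2.17 and 0.999 FPKM in H3.3K27M and 4.24 and 3.90 in H3.3WT. The H3.3K27M mean was 39% of the H3.3WT mean, and the log2 change was -1.01 ± 0.24 (limma adjusted p = 0.019). Setd1a had 14.8 and 8.63 FPKM in H3.3K27M and 23.0 and 20.2 in H3.3WT (log2 change -0.87 ± 0.24, adjusted p = 0.032). With the trends on GC content and length removed both calls were kept at smaller changes, -0.53 for Setd1b (adjusted p = 0.033) and -0.53 for Setd1a (0.042). In H3.3K27M library 1 alone, both genes were also below both H3.3WT libraries. Whether that library differs from H3.3WT by transcript length was not tested. Without library 2 the changes were -0.67 for Setd1b (adjusted p = 0.076) and -0.51 for Setd1a (0.121). Both calls were also lost without either H3.3WT library, with adjusted p of 0.092 and 0.074 for Setd1b and 0.154 and 0.102 for Setd1a. Scaling by median of ratios or quantiles kept Setd1b (0.023 and 0.027) and lost Setd1a (0.053 and 0.079).

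The KMT2 enzymes did not pass in H3.3K27M, and their libraries were far apart. Kmt2a had 3.75 and 1.39 FPKM in H3.3K27M and 4.16 and 3.57 in H3.3WT, and Kmt2d had 5.44 and 1.78 FPKM in H3.3K27M and 7.70 and 4.84 in H3.3WT. For both, H3.3K27M library 1 lay within the H3.3WT range and library 2 far below it. Kmt2a had a log2 change of -0.53 (95% interval -1.22 to 0.16), which was -0.03 without H3.3K27M replicate 2 and -1.03 without H3.3K27M replicate 1. Kmt2d had -0.75 (95% interval -1.60 to 0.10), which was -0.15 and -1.36 in the same fits. Kmt2b (9.70 and 5.31 FPKM in H3.3K27M, 9.74 and 8.61 in H3.3WT) and Kmt2c (1.86 and 0.704 in H3.3K27M, 1.76 and 1.63 in H3.3WT) overlapped between the groups.

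Wdr5 had 52.3 and 51.2 FPKM in H3.3K27M and 71.4 and 72.4 in H3.3WT, a gap much wider than the spread within either group. Its log2 change of -0.47 ± 0.16 did not pass (limma adjusted p = 0.058), and passed in a fit of all 6 libraries (0.033), with a minimum mean of 5 FPKM (0.048) and with the trends on GC content and length removed (0.023). It did not pass with median-of-ratios scaling (0.215), with quantile normalization (0.090) or in any of the 4 fits that left out 1 library (0.077 to 0.242). Ash2l, Paxip1 and Ncoa6 overlapped between H3.3K27M and H3.3WT, with log2 changes of -0.13, -0.06 and -0.18.

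**Figure D4:**
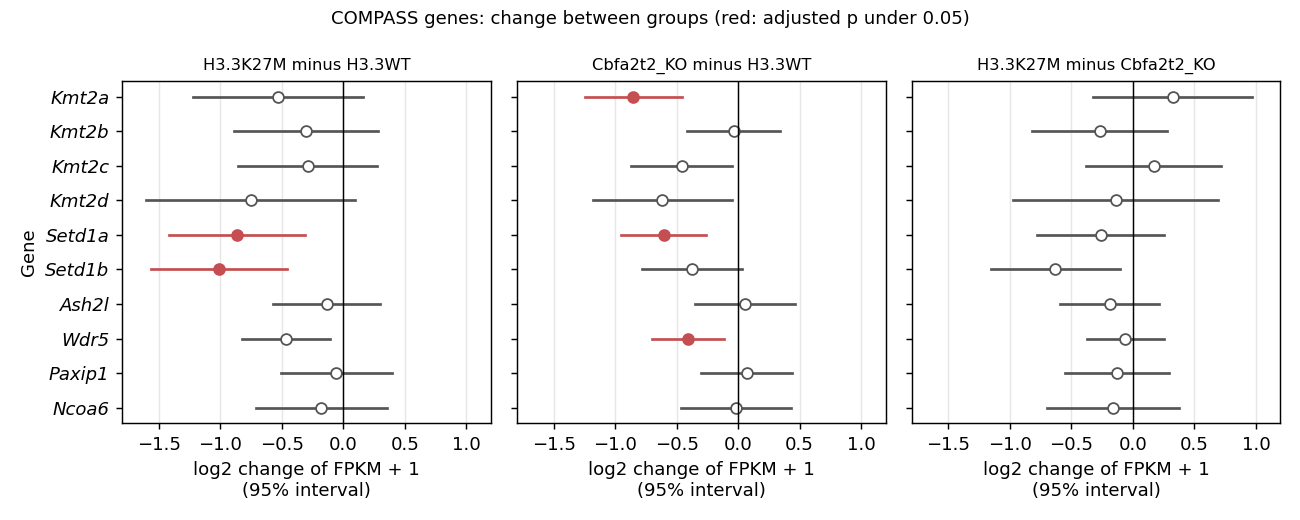
Log2 change of the 10 COMPASS genes with 95% intervals (not adjusted for the number of genes) for H3.3K27M minus H3.3WT, Cbfa2t2_KO minus H3.3WT and H3.3K27M minus Cbfa2t2_KO, from limma on log2(FPKM + 1); red marks an adjusted p under 0.05. Setd1a and Setd1b are red in the first panel, Kmt2a, Setd1a and Wdr5 in the second and none in the third.

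Set against each other, H3.3K27M and Cbfa2t2_KO did not differ past the threshold in any of the 10 genes by limma (0 of 10 at an adjusted p under 0.05, 1 of 10 at an unadjusted p under 0.05), where 8.07% of 11464 genes were called, 4.89% lower and 3.18% higher, and 29.1% passed unadjusted. Groups did not overlap for 3 of the 10 (Setd1b, Ash2l and Wdr5), all lower in H3.3K27M, where 58.5% of all genes did not overlap, 31.8% lower and 26.6% higher. The 1 gene was Setd1b, with 2.17 and 0.999 FPKM in H3.3K27M and 3.18 and 2.63 in Cbfa2t2_KO (log2 change -0.63, 95% interval -1.15 to -0.11, adjusted p = 0.112). Setd1b passed without H3.3K27M replicate 1 (adjusted p = 0.041), and its change was -0.25 with the trends on GC content and length removed. For Kmt2a the change was 0.32 (95% interval -0.32 to 0.97), and with those trends removed it was 0.56 and passed (adjusted p = 0.049). With exon number added to those trends it was 0.46 and did not pass (limma adjusted p = 0.16). Of 10 other settings that test Kmt2a by adjusted p alone, 1 called it. Wdr5 had nearly the same level in both lines, with a change of -0.06 (95% interval -0.37 to 0.25). The intervals of the other genes reached from -0.97 to 0.72, so differences within that range could not be resolved.

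Of 11 other COMPASS subunits, all listed, 10 were tested in each comparison with H3.3WT, Hcfc2 being below 1 FPKM. Pagr1a reached the minimum through H3.3WT alone, so it is described below and not counted here. Of the other 9, Rbbp5, Wdr82 and Hcfc1 fell in H3.3K27M and 0 rose, where 17.8% of all genes were called lower. In Cbfa2t2_KO, Rbbp5, Dpy30 and Wdr82 fell and Cxxc1 rose, where 21.5% of all genes were called lower and 13.1% higher. The count of the 9 called moved in both lines when 1 library was left out, which leaves 1 library in a group. The share of all genes called lower was also smaller in each of those fits, so those counts are not read as a result about the 9. The core gene Rbbp5 had 15.9 and 13.3 FPKM in H3.3K27M and 12.5 and 10.9 in Cbfa2t2_KO, against 24.9 and 25.9 in H3.3WT, and fell in both lines (log2 changes -0.76 and -1.06, limma adjusted p = 0.015 and 0.0020). Its call in H3.3K27M was lost without H3.3K27M replicate 2, H3.3WT replicate 1 or H3.3WT replicate 2 (adjusted p up to 0.101). Dpy30, the smallest core subunit, had 65.4 and 81.4 FPKM in H3.3K27M and 54.6 and 51.1 in Cbfa2t2_KO, against 86.1 and 67.1 in H3.3WT, and fell in Cbfa2t2_KO (log2 change -0.52, limma adjusted p = 0.036). Leaving out either Cbfa2t2_KO library or H3.3WT replicate 1 ended the Dpy30 call (adjusted p up to 0.176), as did median-of-ratios scaling (0.125) and removal of the trends on GC content and length (0.070). In H3.3K27M the change of Dpy30 was -0.06 and did not pass. The difference of Dpy30 between the lines did not pass (log2 change 0.46, adjusted p = 0.127).

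Among subunits of the SETD1 complexes, Wdr82, which tethers them to RNA polymerase II, had 31.5 and 30.04 FPKM in H3.3K27M and 24.8 and 23.3 in Cbfa2t2_KO, against 45.3 and 51.9 in H3.3WT. Wdr82 fell in both lines (log2 changes -0.64 and -0.98, limma adjusted p = 0.024 and 0.0022), and its call in H3.3K27M was lost with median-of-ratios scaling (0.070), quantile normalization (0.052) and without H3.3K27M replicate 2, H3.3WT replicate 1 or H3.3WT replicate 2 (0.074, 0.080 and 0.172). Cxxc1, which encodes the CpG-binding subunit CFP1, had 18.2 and 15.3 FPKM in H3.3K27M and 32.7 and 38.1 in Cbfa2t2_KO, against 17.7 and 14.0 in H3.3WT. The Cbfa2t2_KO libraries stood above all others. Cxxc1 rose in Cbfa2t2_KO (log2 change 1.12, adjusted p = 0.0024), a call kept under the 12 other settings and in each fit that left out 1 library. Bod1l had 2.66 and 1.37 FPKM in H3.3K27M and 2.40 and 1.03 in Cbfa2t2_KO, against 2.09 and 1.95 in H3.3WT, and did not pass in either line.

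Hcfc1, a host cell factor shared with other chromatin complexes, had 27.3 and 17.6 FPKM in H3.3K27M and 45.7 and 43.5 in Cbfa2t2_KO, against 59.5 and 46.1 in H3.3WT. It fell in H3.3K27M (log2 change -1.22, limma adjusted p = 0.0078), a call lost without H3.3WT replicate 1 (0.060), and did not pass in Cbfa2t2_KO (-0.23, adjusted p = 0.293). Pagr1a, the partner of PTIP in the KMT2C and KMT2D complexes, was listed at 0.102 and 0.279 FPKM in H3.3K27M and 0.263 and 0.353 in Cbfa2t2_KO, against 1.22 and 3.23 in H3.3WT. The 2 H3.3WT libraries of Pagr1a were far apart, and its calls as lower (limma adjusted p = 0.011 and 0.013) were lost without any 1 of the H3.3K27M or Cbfa2t2_KO libraries (0.053 to 0.070). Without H3.3WT replicate 2 it fell below the minimum and was not tested. Men1, which encodes menin, had 11.9 and 10.1 FPKM in H3.3K27M and 8.94 and 14.5 in Cbfa2t2_KO, against 18.0 and 14.8 in H3.3WT, and did not pass (adjusted p = 0.065 and 0.132). Psip1 and the demethylase gene Kdm6a did not pass in either line. Hcfc2 lay between 0.372 and 0.899 FPKM in all libraries. Kdm6a had 4.56 and 3.15 FPKM in H3.3K27M and 5.56 and 3.63 in Cbfa2t2_KO, against 4.51 and 4.66 in H3.3WT. Psip1 had 37.1 and 35.1 FPKM in H3.3K27M and 32.4 and 22.3 in Cbfa2t2_KO, against 23.0 and 33.7 in H3.3WT.

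**Figure D5:**
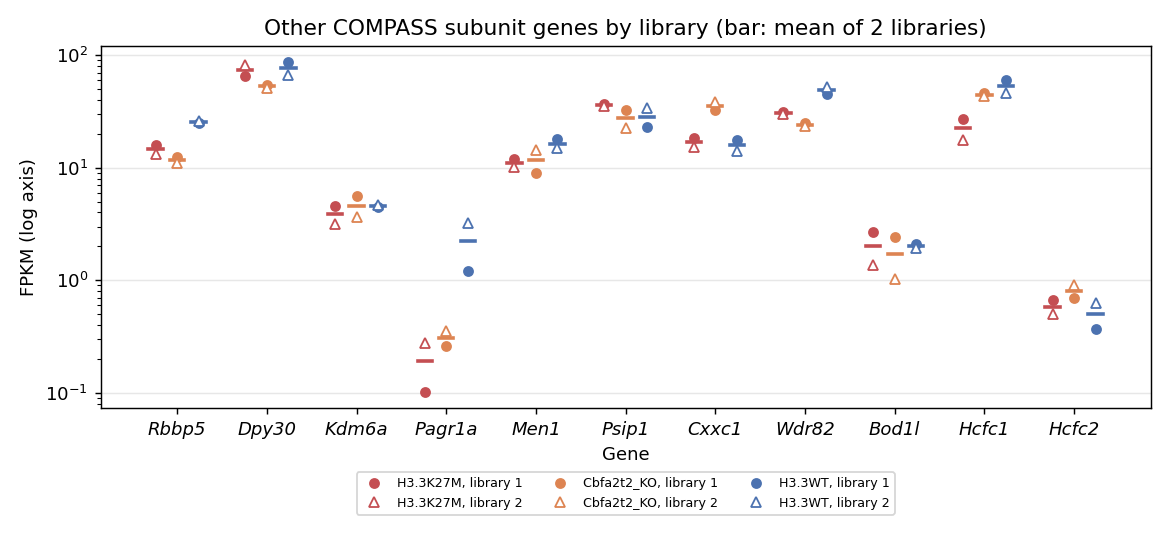
FPKM (log axis) of 11 other COMPASS subunit genes in each library, with colours and symbols as in the plot of the 10 genes. Rbbp5 and Wdr82 lie lower in both lines than in H3.3WT, Cxxc1 is higher in Cbfa2t2_KO alone at 32.7 and 38.1, and Hcfc1 is lowest in H3.3K27M at 27.3 and 17.6.

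Genes that act before and after the enzymes were counted from lists chosen by role. Of 12 genes for proteins that bind trimethylated H3K4 2 fell in H3.3K27M and 7 in Cbfa2t2_KO, where 17.8% and 21.5% of all genes were called lower, and none of the 12 rose. Taf3, a TFIID subunit, had 4.01 and 2.95 FPKM in H3.3K27M and 4.61 and 3.74 in Cbfa2t2_KO, against 9.32 and 7.91 in H3.3WT (log2 changes -1.11 and -0.90, limma adjusted p = 0.0071 and 0.0084). The Taf3 calls were lost without H3.3WT replicate 1 in H3.3K27M (0.057) and without Cbfa2t2_KO replicate 2 in Cbfa2t2_KO (0.058). Ing1 fell in H3.3K27M (log2 change -0.60, adjusted p = 0.028), a call lost with median-of-ratios scaling (0.081) and in 3 of 4 fits that left out 1 library (up to 0.153). Ing5 had the largest change of the list in Cbfa2t2_KO (-0.98, adjusted p = 0.0036), kept in each fit that left out 1 library. With the trends on GC content and length removed, 8 fell in H3.3K27M, where 21.9% of all genes did, and 0 fell without H3.3WT replicate 1, 1 without H3.3WT replicate 2 or H3.3K27M replicate 2 and 6 without H3.3K27M replicate 1, where 6.17% to 17.1% of all genes fell. In Cbfa2t2_KO the count was 2 without Cbfa2t2_KO replicate 2 and 3 without H3.3WT replicate 2, where 10.3% and 11.7% of all genes fell. Of 11 genes of H2B ubiquitination and the PAF complex, which act before H3K4 methylation, 3 fell in H3.3K27M and 2 in Cbfa2t2_KO, near the shares of all genes called lower. Rnf40, an E3 ligase gene, fell in H3.3K27M (log2 change -0.97, adjusted p = 0.0059), as did Ctr9 (-0.62, 0.035), and Wac (-0.93, 0.0063) and Leo1 (-0.51, 0.047) fell in Cbfa2t2_KO. The calls of Rnf40 and Wac were kept in each fit that left out 1 library, and those of Ctr9 and Leo1 were lost with median-of-ratios scaling (0.072 and 0.107). The Leo1 call was also lost in each of the 4 fits that left out 1 library (0.051 to 0.225), and the Ctr9 call in 3 of 4 (up to 0.169). With the trends on GC content and length removed, 5 fell and 1 rose in Cbfa2t2_KO, where 26.2% of all genes fell and 15.9% rose. Between the lines Leo1 was higher (0.66, adjusted p = 0.046) and Rnf40 lower (-0.61, 0.044) in H3.3K27M than in Cbfa2t2_KO, and the calls were lost in a fit of those 4 libraries alone (0.069 and 0.072). Leaving out 1 library ended the Leo1 call in 4 of 4 fits (up to 0.284) and the Rnf40 call in 3 of 4 (up to 0.235). Of 7 H3K4 demethylase genes 5 are listed, and none of them passed in either line against H3.3WT by limma. Over all genes 26.2% passed in H3.3K27M and 34.6% in Cbfa2t2_KO. At an unadjusted p under 0.05 there were 0 of 5 in H3.3K27M and 1 of 5 in Cbfa2t2_KO, where 40.5% and 46% of all genes passed. With median-of-ratios scaling or quantile normalization, 1 demethylase gene was called higher in Cbfa2t2_KO, where 17.9% and 17.4% of all genes were. Of 7 tested genes from a list of other SET and SMYD proteins, 1 fell in each line, where 17.8% and 21.5% of all genes were called lower. It was Smyd1, with 1.16 and 1.18 FPKM in H3.3K27M and 1.21 and 1.02 in Cbfa2t2_KO, against 3.56 and 3.43 in H3.3WT (log2 changes -1.05 and -1.09, limma adjusted p = 0.0052 and 0.0027).

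Promoter sequence was examined for the 7 of 10 genes that matched the RefSeq table (GRCm38.p6), as the 250 bases before the start that RefSeq gives. Kmt2b, Setd1b and Ash2l did not match. The windows of Ncoa6 (chr2:155440784-155441033) and Setd1a (chr7:127777139-127777388) lie inside the gene bounds given above, so they do not precede the outermost start of those genes. The windows of Paxip1 and Kmt2a reach into those bounds in part. The windows of Kmt2a (chr9:44881290-44881539, minus strand) and of Wdr5 (chr2:27514897-27515146, plus strand) are shown because these are an enzyme gene and a core gene that fell in Cbfa2t2_KO, a choice made after their values were seen. Capitals mark the GC box GGGCGG on either strand.
Kmt2a: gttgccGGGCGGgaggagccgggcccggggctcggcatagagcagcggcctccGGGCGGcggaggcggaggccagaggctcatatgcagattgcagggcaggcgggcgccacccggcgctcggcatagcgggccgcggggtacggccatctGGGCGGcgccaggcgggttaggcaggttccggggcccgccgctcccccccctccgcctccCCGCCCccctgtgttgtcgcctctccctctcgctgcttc
Wdr5: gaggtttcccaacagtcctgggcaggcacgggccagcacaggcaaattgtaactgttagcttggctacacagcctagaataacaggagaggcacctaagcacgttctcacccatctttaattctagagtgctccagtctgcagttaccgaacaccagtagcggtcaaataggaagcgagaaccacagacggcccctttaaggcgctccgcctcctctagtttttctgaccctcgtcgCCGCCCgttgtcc
The Kmt2a window held 4 GC boxes and 29 CpG dinucleotides, and the Wdr5 window 1 and 12. Of the 7 windows 5 held a GC box, where 32.7% of 32851 windows of the same length did, and the windows of Ncoa6 and Setd1a held none. The number of CpG was 1 in the Ncoa6 window and 25 in the Setd1a window, and ran from 12 in Wdr5 to 48 in Kmt2c over the other 5, where the median of all windows was 6. The letters CCGGAAG (ETS), CCAAT and AAGATGGC (YY1), each on either strand, had no match in the 7 windows, and 6.91%, 33.8% and 1.56% of all windows held them. The NRF1 motif matched in the Paxip1 window, and in 0.782% of all windows. A match describes the letters and not a bound site.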

How the data were processed

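RNA was measured in 6 poly(A) libraries, 2 in each of 3 groups. The authors deposited FPKM per gene in 2 tables, 1 for each line with H3.3WT. The H3.3WT columns were identical for all 14082 genes shared by the tables. The submitters' processing notes name the build GRCm38 and, without versions, StringTie, HISAT2, DESeq and Trim Galore. The sources used here give neither annotation nor strandedness. In the table of Cbfa2t2_KO, columns of both groups carry library codes found in the labels. In the table of H3.3K27M, columns carry the group letter alone, and its library numbers follow the column names.

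The deposited FPKM were tested on the log2(FPKM + 1) scale by limma 3.58.1 (R 4.3.3, eBayes with trend). Genes entered a test when their FPKM averaged 1 or more over the groups compared, with Benjamini-Hochberg adjustment over all of them and a threshold of 0.05. Each line was fitted with H3.3WT in 4 libraries, and H3.3K27M minus Cbfa2t2_KO in all 6. The procedure was also run on simulated data with independent noise for each gene and library. Those data lack the length pattern of these libraries, so they do not show how the procedure handles it. Transcript length, GC content and exon number come from GENCODE vM21, which held 14646 of 14667 gene IDs. Figures were drawn with matplotlib 3.10.9.

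The 10 genes, the other lists and the alternatives were chosen with earlier results of these data known. All 10 genes and the other COMPASS subunits are named. From each further chromatin list, up to 2 called genes with the largest change per comparison are named, and for each of the 10 genes the 1 gene whose values over the 6 libraries correlate best with it.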

Additional observations from a re-analysis of the deposited data

Results flagged for a closer look

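Cxxc1 and Hcfc1 differed between the lines by the direct test of H3.3K27M against Cbfa2t2_KO. Cxxc1 had a log2 change of -1.04 (limma adjusted p = 0.016), with 18.2 and 15.3 FPKM in H3.3K27M and 32.7 and 38.1 in Cbfa2t2_KO. The Cxxc1 call was lost without H3.3K27M replicate 2 or Cbfa2t2_KO replicate 2 (adjusted p up to 0.143). Hcfc1 had a log2 change of -0.99 (limma adjusted p = 0.031), with 27.3 and 17.6 FPKM in H3.3K27M and 45.7 and 43.5 in Cbfa2t2_KO. The Hcfc1 call was lost in 3 of 4 fits that left out 1 library (adjusted p up to 0.174).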

How the results depend on the processing

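No paired analysis was possible because the replicate numbers follow only the order of the records or columns and mark no shared culture, batch or day. Cbfa2t2_KO against H3.3WT called 3 of the 10 genes lower, where 21.5% of all genes were. The count was 1 in a fit of all 6 libraries (19.6% of all genes lower) and 0 with a log2 change of at least 1 also required (5.94%). H3.3K27M against H3.3WT called 2 lower, where 17.8% of all genes were. The count was 1 with median-of-ratios scaling or quantile normalization (12.3% of all genes lower in both) and 1 with the minimum change (6.13%). H3.3K27M against Cbfa2t2_KO called 0, where 8.07% of all genes were called. With trends on GC content and length removed it called Kmt2a higher, where 5.5% of all genes were. Kmt2a did not pass with exon number added to those trends (limma adjusted p = 0.16). In each comparison the count moved when 1 library was left out. With median-of-ratios scaling, the log2 change Cbfa2t2_KO minus H3.3WT turned to 0.082 for Kmt2b, 0.072 for Ncoa6, 0.086 for Kdm6a and 0.076 for Psip1. With quantile normalization, the log2 change Cbfa2t2_KO minus H3.3WT turned to 0.11 for Kmt2b, 0.085 for Ncoa6, 0.12 for Kdm6a and 0.067 for Psip1. With trends on GC content and length removed, the log2 change Cbfa2t2_KO minus H3.3WT turned to 0.058 for Kmt2b, 0.017 for Ncoa6, 0.10 for Kdm6a and 0.026 for Psip1. With exon number added to those trends, the log2 change Cbfa2t2_KO minus H3.3WT turned to -0.040 for Ash2l and 0.035 for Ncoa6. Leaving out 1 library at a time, the log2 change Cbfa2t2_KO minus H3.3WT took both signs for Kmt2b -0.11 to 0.045, Ash2l -0.050 to 0.16, Paxip1 -0.027 to 0.17, Ncoa6 -0.22 to 0.18, Kdm6a -0.27 to 0.23, Psip1 -0.31 to 0.22 and Bod1l -0.57 to 0.17. With median-of-ratios scaling, the log2 change H3.3K27M minus H3.3WT turned to 0.079 for Paxip1, 0.092 for Dpy30 and 0.064 for Bod1l. With quantile normalization, the log2 change H3.3K27M minus H3.3WT turned to 0.019 for Ash2l, 0.13 for Paxip1 and 0.076 for Bod1l. With trends on GC content and length removed, the log2 change H3.3K27M minus H3.3WT turned to 0.17 for Kmt2b, 0.043 for Paxip1 and 0.073 for Bod1l. Leaving out 1 library at a time, the log2 change H3.3K27M minus H3.3WT took both signs for Kmt2b -0.69 to 0.075, Kmt2c -0.66 to 0.083, Paxip1 -0.25 to 0.14, Ncoa6 -0.50 to 0.14, Dpy30 -0.24 to 0.12, Cxxc1 -0.077 to 0.24 and Bod1l -0.35 to 0.28. With quantile normalization, the log2 change H3.3K27M minus Cbfa2t2_KO turned to 0.010 for Men1. With trends on GC content and length removed, the log2 change H3.3K27M minus Cbfa2t2_KO turned to 0.0024 for the median of the 10 genes, 0.10 for Kmt2b, 0.35 for Kmt2d, 0.024 for Setd1a and 0.19 for Men1. With exon number added to those trends, the log2 change H3.3K27M minus Cbfa2t2_KO turned to 0.097 for Kmt2b, 0.26 for Kmt2d, 0.0070 for Setd1a and 0.21 for Men1. Leaving out 1 library at a time, the log2 change H3.3K27M minus Cbfa2t2_KO took both signs for the median of the genes tested -0.48 (9 genes, Kmt2c being below the minimum) to 0.10 (10 genes), Kmt2a -0.17 to 0.82, Kmt2b -0.65 to 0.11, Kmt2d -0.74 to 0.47, Setd1a -0.62 to 0.097, Paxip1 -0.32 to 0.067, Ncoa6 -0.48 to 0.16, Kdm6a -0.45 to 0.052, Men1 -0.37 to 0.27, Bod1l -0.20 to 0.54 and Kmt2c -0.0028 to 0.54. The cause was not tested. The trends with exon number were chosen after seeing the data. Over all genes, higher ones made up 32.1% of calls in H3.3K27M against H3.3WT, 49.0% with median-of-ratios scaling and 50.6% with quantile normalization. Calls over all genes ran from 1007 to 2790 in H3.3K27M (3049 with all libraries), from 1915 to 3038 in Cbfa2t2_KO (4028) and from 40 to 827 between the lines (925) when 1 library was left out, and a log2 change of at least 1 left 987, 1073 and 234. Between the lines 554 were called in the fit of those 4 libraries alone. Depth is unknown, and 2 libraries a group limit what can be told apart.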

Other observations

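For each of the 10 genes, the gene with the most similar values over the 6 libraries was looked up among 11600 others with a mean of at least 1 FPKM, by Pearson correlation of log2(FPKM + 1). The nearest genes were Wdr59 for Kmt2a (r = 0.979), Ubap2 for Kmt2b (0.995), Zfhx3 for Kmt2c (0.992), Gm15784 for Kmt2d (0.995), Ssh1 for Setd1a (0.997), Gm6685 for Setd1b (0.999), Etfdh for Ash2l (0.963), Dpm2 for Wdr5 (0.999), Dennd5a for Paxip1 (0.996) and Zfp652 for Ncoa6 (0.994). These values describe 6 libraries in 3 groups, which share the length trends described above. Among the 10 genes themselves, Paxip1 and Ncoa6 were the most alike (r = 0.966), followed by Setd1a and Setd1b (0.941) and by Kmt2a and Kmt2c (0.932). Ash2l was the least like the others, with a highest r of 0.407.

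Of 9 known KMT2A and menin target genes, 3 are listed and tested. None of the 3 passed by limma in either line against H3.3WT, where 26.2% of all genes passed in H3.3K27M and 34.6% in Cbfa2t2_KO. At an unadjusted p under 0.05 there were 0 in H3.3K27M and 1 in Cbfa2t2_KO, where 40.5% and 46% of all genes passed. The log2 changes ran from -0.56 to 0.24 in H3.3K27M and from -0.65 to -0.21 in Cbfa2t2_KO. The middle value was that of Eya1 in both lines, -0.03 and -0.46. Eya1 averaged 0.856 FPKM in Cbfa2t2_KO and reached the minimum there through H3.3WT alone.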
